A study of Microtus ochrogaster with 51 samples.

Results

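The mitochondrial genome of vertebrates codes for 7 subunits of complex I, the NADH dehydrogenase of the respiratory chain. The candidate mRNAs of these subunits, 7 of the 23038 gene IDs in the deposited tables, were followed in brain tissue of prairie voles (Microtus ochrogaster), dissected from the nucleus accumbens. The tables give IDs without gene names. IDs ending in 1 to 37 appear to follow the gene order of the vertebrate mitochondrial genome, and the 7 IDs were taken from the places of the subunit genes in that order. On this basis ENSMOCG00000000006 is the candidate for ND1, ENSMOCG00000000010 for ND2, ENSMOCG00000000025 for ND3, ENSMOCG00000000027 for ND4L, ENSMOCG00000000028 for ND4, ENSMOCG00000000032 for ND5 and ENSMOCG00000000033 for ND6. The short names are used below in this inferred sense, and the names of other mitochondrial genes were inferred in the same way.

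Complex I passes electrons from NADH to ubiquinone and pumps protons across the inner mitochondrial membrane. Its mitochondrially encoded subunits all lie in the membrane arm, and the remaining subunits come from nuclear genes. Mitochondrial genes are transcribed as long precursors that are then processed into single mRNAs. In voles the nucleus accumbens, in the ventral striatum, is known for its role in pair bonding, and neurons depend heavily on oxidative phosphorylation.

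Voles were bred at the University of Colorado, and the labels give neither a strain nor an age nor a genetic change for any group. Each animal was housed with a mate of the opposite sex, and all groups share that history of pairing. The groups were 2 weeks of pairing (10 females and 10 males), 2 weeks of pairing followed by 4 weeks of separation (12 females and 13 males), and 6 weeks of pairing (3 females and 3 males). No unpaired animals were among the groups. Polyadenylated RNA was sequenced from 1 library per animal. The labels also give 4 cohorts. All 2-week pairs come from cohorts 1 and 2, and all separated and 6-week animals from cohorts 3 and 4. Where 2-week pairs are compared with a later group, cohort and treatment therefore cannot be told apart. Tissue markers could not be checked because no IDs were paired with names.

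TPM values divide reads by a length assigned to each gene in each library, so levels compared between genes depend on those lengths. They were given for 51 libraries. Normalized counts were given for 42 of them, all from 2-week paired and separated voles, with 20067514 to 37737711 recovered reads per library. In these 42 libraries the smallest read count of any of the 7 mRNAs was 2643, so counting error was small beside the spread between animals. The tissue was sequenced in bulk, so fewer cells of a type and less RNA per cell cannot be told apart.

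The inferred names were checked against relative length. The reads that correspond to 1 TPM are proportional to the length the authors used, and ND4 was set to 1. On that scale ND5, the longest of the subunit genes in vertebrates, was 1.37, ND2 was 0.707 and ND1 was 0.638. ND6 was 0.272, ND3 was 0.131 and ND4L, the shortest, was 0.0966. The order known for vertebrate coding lengths was found in 42 of 42 libraries, both for the 7 mRNAs and for all 13 candidate mitochondrial mRNAs. All libraries share the same annotation, so this is 1 check repeated and not 42 separate ones. Abundance also separated the IDs: all 22 IDs in the places of tRNA genes had a mean TPM of at most 879, and 11 of the 13 candidate mRNAs were among the 13 IDs with the highest mean TPM. Among the 23038 IDs ND1 ranked 5, ND2 6, ND4 8, ND3 10, ND4L 13, ND5 14 and ND6 81 by mean TPM. The relative length of ND4L ran from 0.0918 to 0.105 between libraries, so the TPM of short mRNAs also depends on the length assigned in each library. These checks test length and abundance, and no sequence was available to test identity directly.

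The authors left 3 libraries out of the normalized table, besides the 6-week libraries. They were the female and the male of 2-week pair 15 and the separated male of pair 23. In these libraries the 7 mRNAs stood far apart from their groups, and the shortest mRNAs stood farthest apart. ND4L measured 402 TPM in the female and 541 TPM in the male of pair 15, against group medians of 11694 and 12080 TPM. In the separated male of pair 23 it measured 105 TPM against a median of 13611 TPM, which is 129-fold lower. ND3 was 16.4-fold, 22.4-fold and 86.1-fold below its group median in the same order of libraries, and ND6 was 15.7-fold, 17.5-fold and 98.6-fold below. The longer ND1, ND2 and ND4 were between 3.67-fold and 5.10-fold below in pair 15 and between 9.30-fold and 12.1-fold below in pair 23. ND5, the longest, was 2.94-fold, 2.70-fold and 3.25-fold below. Among the other candidate mRNAs, the very short ATP8 was 223-fold to 575-fold below its group medians. COX3, with a relative length of 0.492, was 1.58-fold to 1.89-fold below, which is less than the longer ND5. COX2 and ATP6 are of nearly equal relative length, at 0.407 and 0.404, but in the separated male COX2 was 12.8-fold and ATP6 3.83-fold below, so mRNAs of like length differed there. The labels give no integrity value for single libraries, and the part of RNA quality in these values was not tested. Levels and the comparisons with 6-week pairs are given with and without these 3 libraries. They have no normalized counts and so enter none of the other comparisons.

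**Figure D1:**
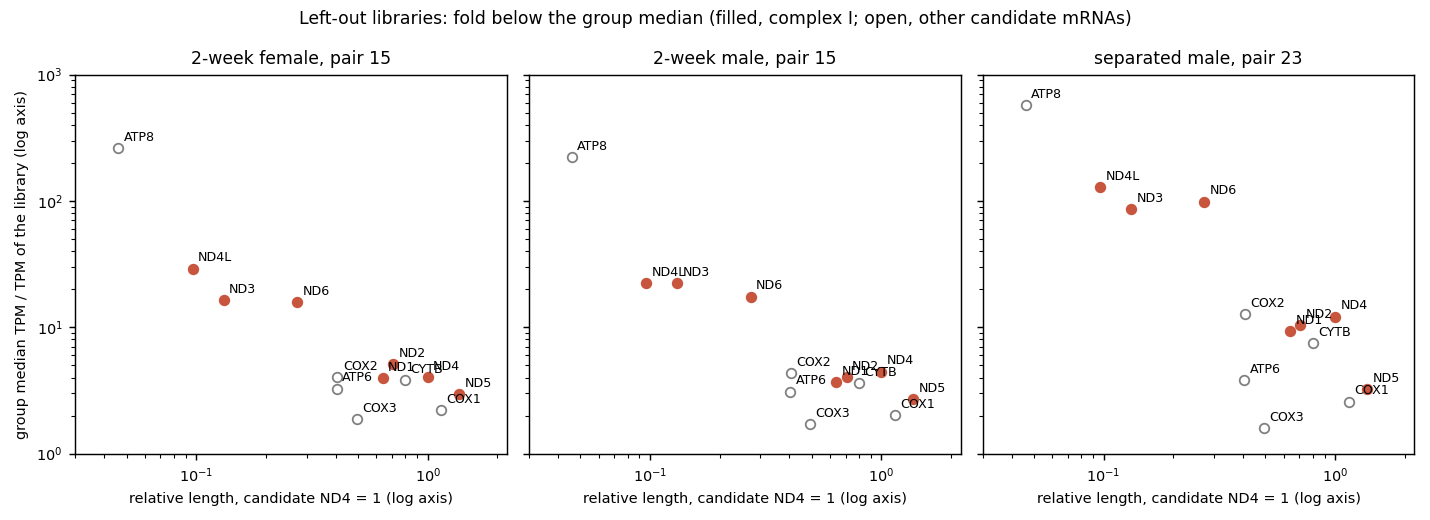
Fold by which each candidate mitochondrial mRNA lay below the median TPM of its group (vertical, log axis) in each of the 3 left-out libraries, against relative length with ND4 set to 1 (horizontal, log axis). Filled points are the 7 complex I mRNAs and open points the other 6 candidate mRNAs. ND4L, ND3 and ND6 lie between 15.7-fold and 129-fold below, and ND5 between 2.70-fold and 3.25-fold below.

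In the other 48 libraries the 7 mRNAs together held 15.03% ± 2.30 of all TPM (SD, n = 48), with a range of 10.03% to 20.1%. They held 33.8% ± 1.49 (SD, n = 48) of the TPM of the 13 candidate mitochondrial mRNAs. In the 3 left-out libraries they held 1.34% to 2.95% of all TPM and 15.2% to 26.04% of the TPM of the 13.

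The levels spanned a wide range from ND1 to ND6, first given for the 48 libraries. ND1, which helps to form the ubiquinone-binding site, had the highest mean at 42096 ± 6975 TPM (SD, n = 48). ND2, one of the proton-pumping subunits, had 39021 ± 6413 TPM (SD, n = 48). ND1 exceeded ND2 in 43 of 48 libraries, by a geometric mean of 1.08-fold, and a difference of that size lay within the spread of each over libraries.

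ND4, another proton-pumping subunit, had 30139 ± 5308 TPM (SD, n = 48) and was below ND2 in all 48 libraries, by 1.30-fold. ND3, a small subunit at the junction of the 2 arms, had 18402 ± 3324 TPM (SD, n = 48), below ND4 in 48 of 48 libraries. ND4L, a small membrane subunit whose gene overlaps that of ND4 in vertebrates, had 13007 ± 2163 TPM (SD, n = 48). ND3 exceeded ND4L in 43 of 48 libraries by 1.41-fold, but the ratio ran from 0.875 to 2.86 between libraries. The order of ND3 and ND4L therefore changed between animals.

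ND5, the subunit that reaches along the membrane arm with its long lateral helix, had 6833 ± 1221 TPM (SD, n = 48). In TPM it was 1.91-fold below ND4L, and below it in 48 of 48 libraries. In reads it was above ND4L, with a log2 read ratio of ND4L to ND5 from -3.25 to -2.52 (n = 42). Their order in TPM therefore rests on the lengths used, 0.0966 for ND4L and 1.37 for ND5 relative to ND4. The same holds for the order of ND1, ND2 and ND4. In reads ND1 was 89.5% and ND2 was 92.0% of ND4 (means, n = 42), although both exceeded ND4 in TPM. ND6, whose gene is the only one of the 7 on the opposite strand in vertebrates, was lowest at 794 ± 168 TPM (SD, n = 48), 8.63-fold below ND5. Over all 51 libraries the means ran from 40117 ± 10491 TPM for ND1 to 750 ± 244 TPM for ND6 (SD, n = 51), and the order of the means was the same. In the 3 left-out libraries ND4L lay below ND5, which it exceeded in the other 48. Whether the authors counted reads by strand, and how they counted reads that also match nuclear copies of mitochondrial sequence, is not given in the sources used here. Vertebrate ND6 and ND5 genes lie end to end on opposite strands and ND4L and ND4 overlap, so how reads were divided within those pairs is uncertain. The libraries were made from polyadenylated RNA, and whether that selection recovered the 7 mRNAs equally was not tested.

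**Figure D2:**
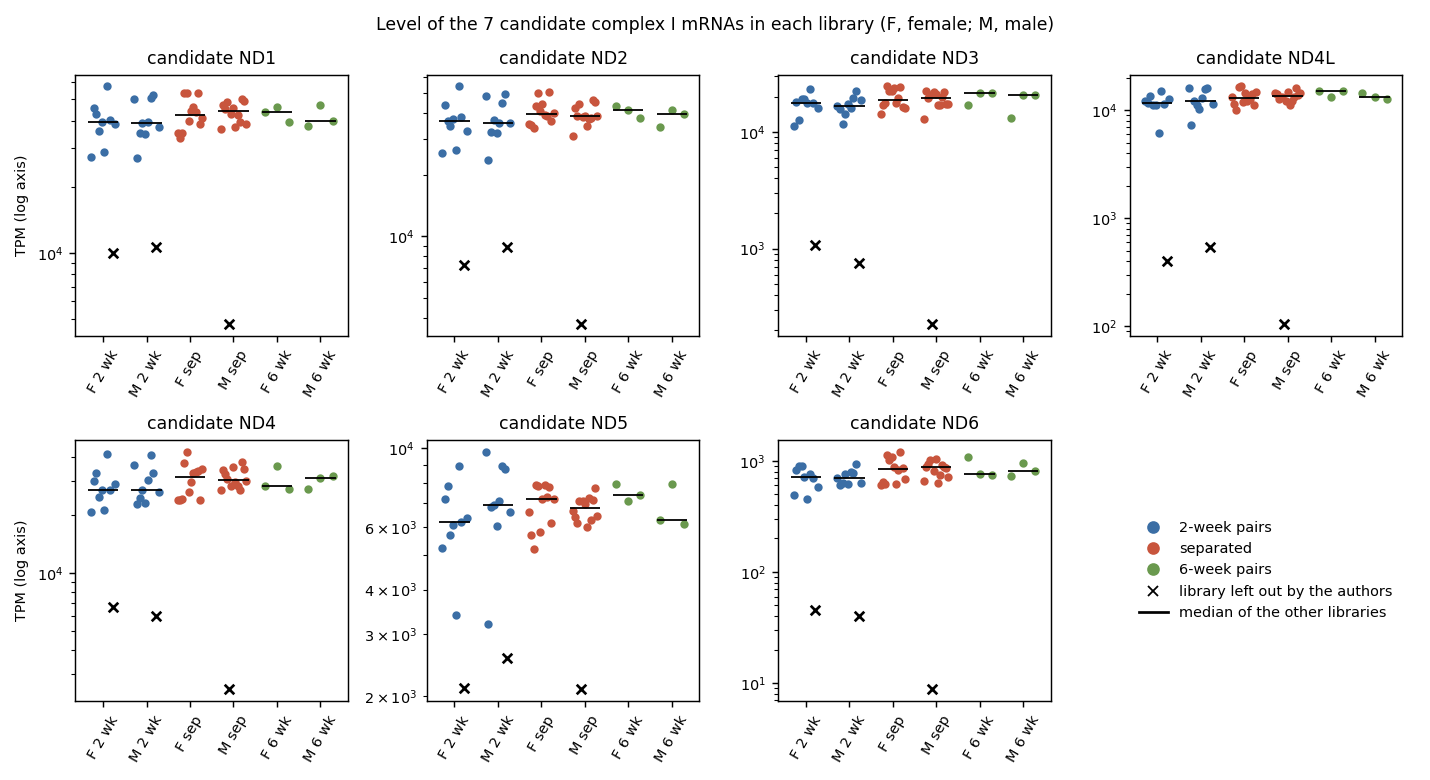
TPM of each of the 7 candidate mRNAs in 51 libraries (log axis) by sex and treatment, where points are single libraries, crosses the 3 left-out libraries and bars the median of the other libraries. Separated and paired groups overlap for every mRNA, and the crosses lie below all other libraries of their group.

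Within a library the mRNAs moved together to different degrees. Each of the 7 differed between its highest and lowest library by 4.08-fold to 4.95-fold in normalized counts. The read ratio of ND1 to ND2 was the most constant of the 21 ratios among them, with an SD of 0.08 on the log2 scale (n = 42). The ratio of ND3 to ND5 was the most variable, with an SD of 0.34, followed by that of ND3 to ND4L with an SD of 0.34. The adjacent pair ND4L and ND4 had an SD of 0.22. Expressed in TPM, ND1 was 140% ± 10.7 of ND4, ND2 was 130% ± 13.9 and ND3 was 61.8% ± 11.02 (SD, n = 42). ND4L was 43.1% ± 5.59 of ND4, ND5 was 22.7% ± 2.97 and ND6 was 2.64% ± 0.507 (SD, n = 42). In the left-out libraries ND5 was between 31.7% and 83.4% of ND4, and ND4L between 4.19% and 8.96%.

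The first question of the design was how separation from the partner differs from 2 weeks of pairing. All 7 mRNAs had higher fitted means in separated voles, but none passed the test. ND6 had the largest difference. In 2-week paired females its normalized count ran from 2594 through a median of 5528 to 8005, and in separated females from 3439 through 5893 to 12590. In 2-week paired males it ran from 3978 through 5546 to 8746, and in separated males from 4292 through 6627 to 9782. The groups overlapped over most of their range in both sexes, and the highest values were those of separated animals. With sexes averaged, the log2 difference was 0.33 ± 0.15 (SE), with an unadjusted p of 0.0399 and a Benjamini-Hochberg adjusted p of 0.272 in limma.

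ND3 ran from 29660 through a median of 63070 to 114967 normalized counts in 2-week paired females and from 39023 through 71016 to 120880 in separated females. In males it ran from 35971 through 62770 to 100782 after 2 weeks and from 41080 through 77446 to 104834 after separation. Both sexes overlapped widely between treatments. The log2 difference was 0.27 ± 0.15 (SE; limma adjusted p = 0.348).

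ND4L ran from 12969 through a median of 29922 to 54249 in 2-week paired females and from 23715 through 35373 to 64174 in separated females. In males it ran from 16759 through 29590 to 53477 after 2 weeks and from 28225 through 37121 to 57223 after separation. The lowest 2-week animals lay below all separated animals of their sex, and the upper parts of the ranges overlapped. The log2 difference was 0.26 ± 0.14 (SE; limma adjusted p = 0.337).

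ND1 ran from 330762 through a median of 715000 to 1424320 in 2-week paired females and from 462945 through 804624 to 1371480 in separated females. In males it ran from 422839 through 661637 to 1176870 after 2 weeks and from 540523 through 827760 to 1181020 after separation. The medians were higher after separation in both sexes, while the highest female was a 2-week paired animal. Its log2 difference was 0.21 ± 0.15 (SE; limma adjusted p = 0.524). ND2 differed by 0.21, ND4 by 0.19 and ND5 by 0.15, each with a standard error of 0.15 and limma adjusted p between 0.510 and 0.678.

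None of the 7 passed an adjusted p of 0.05 in limma, where 3.29% of the 14151 IDs tested did. In this fit ND6 was the only one with an unadjusted p under 0.05, as had 2353 of the 14151 IDs. With array weights in limma, 3 of the 7 were under it (smallest adjusted p 0.103). So were 4212 of all IDs, and 1898 IDs were called. In limma on TPM of the same libraries it was also 3 (smallest adjusted p 0.292), against 1408 of 13048 IDs tested. With the pair as a block, 0 of the 7 had an unadjusted p under 0.05 (smallest 0.0850, ND6), against 1454 of all IDs. The IDs called in limma went from 465 to 8. edgeR and DESeq2 on the recovered reads also called 0 of the 7, again with 1 of them (ND6) under an unadjusted p of 0.05. Of all IDs, 2350 were under it in edgeR and 2474 in DESeq2. The median log2 difference of the 7 was 0.21, that of all IDs tested was 0.00, and 13.8% of all IDs tested had a larger positive difference than that median. Over 36 other settings, leaving out each pair included, the difference of ND6 ran from 0.24 to 0.57 and that of ND5 from 0.06 to 0.43, with 0 of 7 called in each. Without pair 13, whose female had the highest ND1, ND2 and ND5 of all, the median rose to 0.32. There 6 of the 7 had an unadjusted p under 0.05, and the share of all IDs is not given here. That female was the highest of the 2-week females for each of the 7, so leaving the pair out raises the difference by construction. The fit takes partners as separate animals and the 7 move together, so these are not 6 separate results. Without cohort 2 the median was 0.46, and without cohort 1 it was 0.14. Both cohorts hold 2-week pairs, with ND1 at 628239 ± 302358 normalized counts in cohort 1 (SD, n = 4) and 763578 ± 284047 in cohort 2 (SD, n = 14).

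The other mitochondrial RNAs had differences of like sign. The candidate 12S and 16S rRNAs differed by 0.46 ± 0.20 and 0.35 ± 0.19 (SE; limma adjusted p = 0.237 and 0.361). The 6 other candidate mRNAs differed by 0.14 to 0.21.

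**Figure D3:**
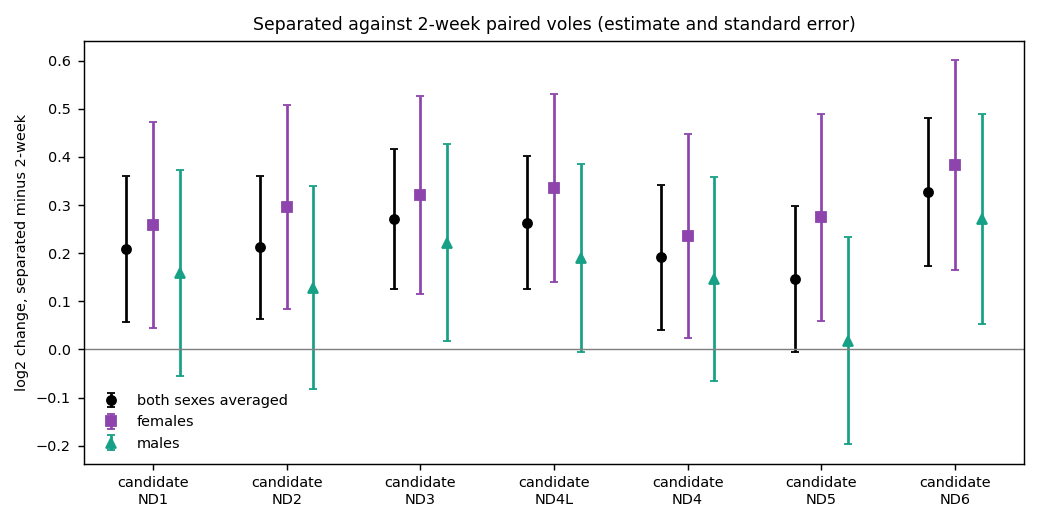
Log2 difference of separated minus 2-week paired voles for each of the 7 candidate mRNAs, on the log2(normalized count + 1) scale, where points are fitted differences and bars 1 standard error. Averaged estimates lie between 0.15 and 0.33, and the female estimate is above the male estimate for each mRNA.

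The same contrast was then taken in each sex. In females the log2 differences ran from 0.24 (ND4) to 0.38 (ND6), and in males from 0.02 (ND5) to 0.27 (ND6). In females 0 of the 7 passed the test in limma, against 0.382% of all IDs tested, and 0 had an unadjusted p under 0.05. Of all 14151 IDs tested, 1381 had one that low. Without pair 13, 5 of the 7 had an unadjusted p under 0.05 in females. Without pair 17 it was 2, with 0 called in either case, and the shares of all IDs are not given here. The female of pair 13 was high among 2-week females and that of pair 17 low among separated females. Leaving out either raises the difference by construction. With the pair as a block the IDs called in females went from 54 to 7, none of them among the 7 mRNAs. In males 0 of the 7 passed, against 0% of all IDs tested, and again 0 had an unadjusted p under 0.05. edgeR and DESeq2 called 0 of 7 in either sex.

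The difference between the sexes was tested directly. The male effect minus the female effect lay between -0.26 (ND5) and -0.09 (ND4) on the log2 scale, and its sign turned under at least 1 other setting for 6 of the 7, the exception being ND5. In limma 0 of the 7 passed, against 0.00707% of all IDs tested, and 0 had an unadjusted p under 0.05. edgeR and DESeq2 likewise called 0 of 7. ND5 in males was 251344 normalized counts (median, 2-week, n = 9) and 272738 (median, separated, n = 12), and the direction of its difference turned in edgeR and DESeq2, where it was -0.07 in each.

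Males and females were also compared with treatments averaged. Male levels were above female levels by 0.04 (ND3, which turned to -0.02 in TPM) to 0.14 (ND4L) on the log2 scale, less than 1 standard error for 6 of the 7 and 0.14 ± 0.14 (SE) for ND4L. None of the 7 passed in limma, against 0.0283% of all IDs tested, and 0 had an unadjusted p under 0.05. edgeR and DESeq2 called 0 of 7.

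The 6-week pairs were measured in TPM only, and allow a comparison with separated voles of the same cohorts. In 6-week paired females ND6 was 1078, 766 and 743 TPM and in males 735, 963 and 816 TPM. Separated females ran from 608 through a median of 846 to 1207 TPM, and separated males without pair 23 from 636 through 872 to 1031 TPM. All 6 values lay inside the range of separated animals of the same sex. ND4L was 14976, 13340 and 15072 TPM in 6-week females and 14557, 13299 and 12619 TPM in males, within separated ranges of 10155 to 16644 TPM in females and 11280 to 16119 TPM in males. ND3 was 16903, 21292 and 21350 TPM in 6-week females. In 6-week males ND3 was 13110, 20482 and 20818 TPM, with pair 18 lowest in both sexes.

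With all libraries, separated minus 6-week paired voles gave log2 differences from -0.45 (ND4L) to -0.15 (ND1) on the log2(TPM + 0.5) scale, with sex and cohort as terms. These values rested on 1 library. Without the left-out male of pair 23 the difference of ND4L was -0.06 ± 0.09 (SE) and that of ND6 was -0.03 ± 0.14 (SE), and ND1, ND3 and ND4 changed sign to 0.03, 0.01 and 0.01. In limma 0 of the 7 passed with or without that library, against 0% of all IDs tested, and 0 had an unadjusted p under 0.05.

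Pairs of 6 weeks were last compared with pairs of 2 weeks. The log2 differences ran from 0.28 (ND5) to 0.71 (ND4L) with all libraries. Without pair 15 ND4L differed by 0.24 ± 0.15 (SE), ND6 by 0.27 ± 0.14 (SE) and ND4 by 0.09 ± 0.13 (SE). In limma 0 of the 7 passed either way, against 0% of all IDs tested, and 0 had an unadjusted p under 0.05. Cohort cannot be told apart from duration in this comparison, and edgeR and DESeq2 were not run on TPM.

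Ratios between subunits do not depend on how libraries were scaled, and were compared as log2 read ratios to ND4, averaged over the partners of a pair. The ratio of ND6 to ND4 was -7.09 ± 0.19 in 12 separated pairs and -7.22 ± 0.24 in 9 pairs of 2 weeks (SD). The separated pairs ran from -7.41 to -6.74 and the 2-week pairs from -7.64 to -6.83, so most values overlapped. The difference of 0.14 had a p of 0.162 in a two-sided exact permutation test and an adjusted p of 0.904 over 24 tests, which were 12 candidate mRNA ratios in 2 contrasts.

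ND3 to ND4 differed by 0.08, ND4L to ND4 by 0.07, and ND1 and ND2 to ND4 by 0.02 each. ND5 to ND4 was the only one lower in separated pairs, by -0.04, and without cohort 2 it was 0.03 higher. None of these passed, with adjusted p of 0.904 in the exact permutation test. Between male and female partners the 6 ratios differed by -0.07 (ND3) to 0.02 (ND4L), and none passed (adjusted p from 0.904 to 0.963, permutation test). Within the male partners the ND5 to ND4 ratio ran from -2.38 to -1.39, so single animals differed more than the groups did.

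Partners share a history of cohabitation, and their levels were compared across the 21 complete pairs. ND3 was the only one of the 7 whose levels in partners were related past the threshold, but 31.3% of all 14151 IDs tested had an r at least as high. In pair 2 the female had 29660 and the male 68294 normalized counts of ND3, the widest gap at 2.30-fold, while the typical gap was 1.24-fold (median). The correlation of ND3 between female and male partners was r = 0.60 (permutation p = 0.00444, adjusted 0.0115 over 26 tests) with rho = 0.60 (permutation p = 0.00464, adjusted 0.0137). Without the 2 pairs farthest from the median female level r was 0.64. It was 0.66 within the 7 pairs of cohort 2 and 0.68 within the 7 pairs of cohort 4, while cohorts 1 and 3 hold fewer than 6 pairs each and were not taken alone. In TPM the r of ND3 was 0.58 (adjusted permutation p = 0.0331), and its rho of 0.48 did not pass (adjusted permutation p = 0.129).

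The other 6 had r from 0.13 (ND5) to 0.39 (ND6), with adjusted permutation p from 0.156 to 0.615 over 21 pairs. The median of the 7 was 0.25, the median over all 14151 IDs was 0.40, and 64.6% of all IDs had a higher r than the median of the 7. Whether ND3 differs from the other 6 in this respect was not tested. ND1 in pair 2 was 330762 in the female and 972246 in the male, a 2.94-fold gap, and 20 of 21 pairs were within a factor of 2. ND4L was widest apart in pair 12, at 12969 and 37554 normalized counts. The male was the higher partner in 10 or 11 of 21 pairs for each of the 7.

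**Figure D4:**
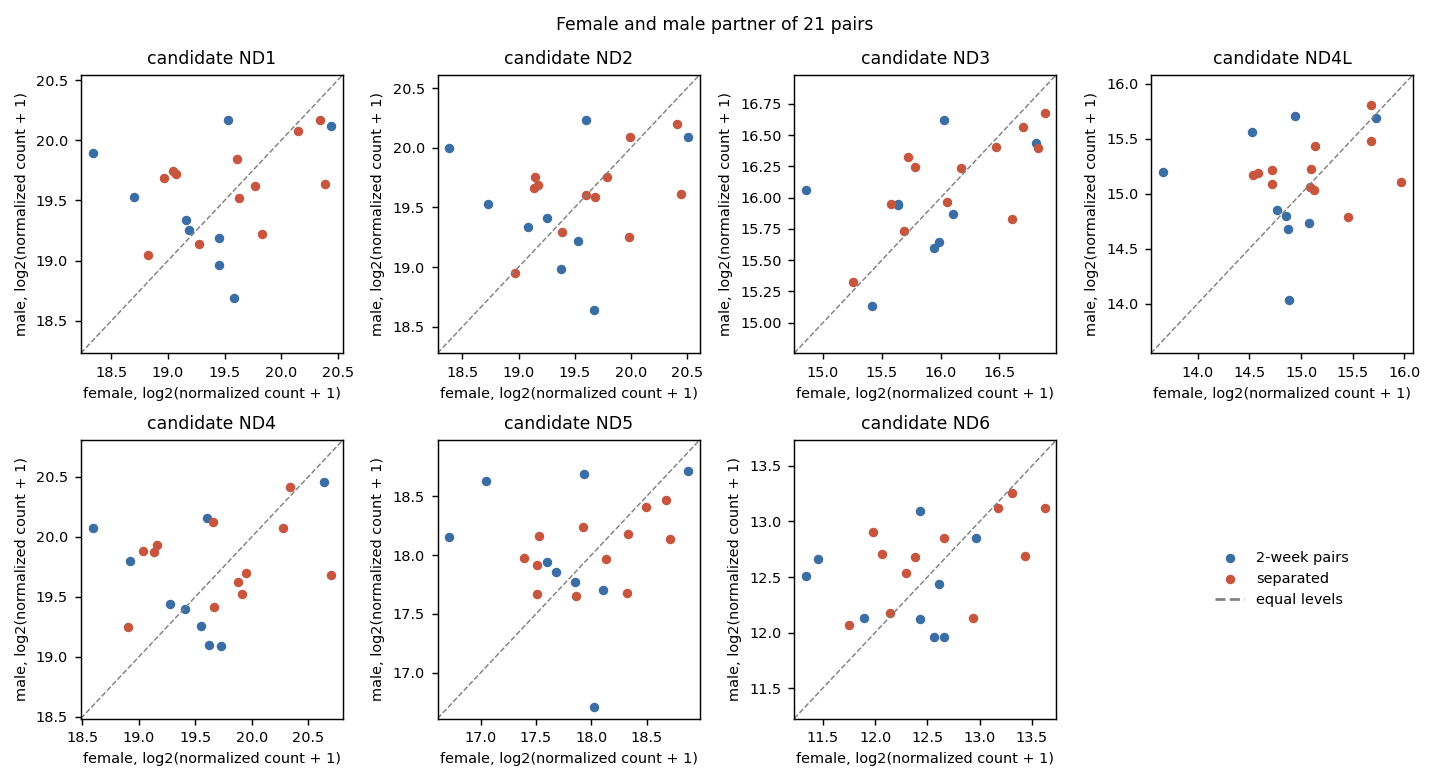
Log2(normalized count + 1) of the male partner (vertical) against the female partner (horizontal) in 21 pairs for each of the 7 candidate mRNAs, where colours mark 2-week and separated pairs and the dashed line equal levels. ND3 has the highest correlation of the 7 (r = 0.60), and pair 2 lies at the far left of the ND1, ND2, ND3 and ND4 panels.

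Levels were lower in pairs with more reads, past the threshold for 5 of the 7. An r as far below 0 as that of ND6, the weakest of these 5, was found for 25.9% of all IDs tested, and one as far from 0 in either direction for 54.7%. ND3 had r = -0.73 (permutation p = 0.00026, adjusted 0.00318) and rho = -0.73 (permutation p = 0.00031, adjusted 0.00403) between the pair mean of its log2 level and the pair mean of the log2 read total over 21 pairs. For ND1 r was -0.67, for ND4 -0.64, for ND2 -0.63 and for ND6 -0.58, with adjusted permutation p of 0.00411, 0.00559, 0.00685 and 0.0143. Their rho values were -0.62, -0.60, -0.58 and -0.55, with adjusted permutation p from 0.0126 to 0.0276. ND5 (r = -0.48, adjusted permutation p = 0.0557) and ND4L (r = -0.35, adjusted permutation p = 0.203) did not pass.

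Without the 2 pairs farthest from the median read total, r was -0.64 for ND3, -0.59 for ND1, -0.56 for ND4, -0.54 for ND2 and -0.42 for ND6. Within cohort 2 r was -0.80 for ND3 and -0.59 for ND1, and within cohort 4 it was -0.68 and -0.86. The median over all IDs tested was -0.01, and 22.6% of them had a lower r than the median of the 7, which was -0.63. A library's normalization factor and its read total are linked by construction. In TPM only ND3 remained past the threshold (r = -0.70, adjusted permutation p = 0.0125), ND1 had r = -0.53, and ND5 and ND4L had -0.04 and 0.07.

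Among the 6 complex I ratios to ND4, only that of ND4L was related to the read total past the threshold. The log2 read ratio of ND4L to ND4 had r = 0.71 (permutation p = 0.00021, adjusted 0.00252 over 24 ratio relations) and rho = 0.74 (permutation p = 0.00023, adjusted 0.00276) with the pair mean read total over 21 pairs. It was 0.68 without the 2 farthest pairs, 0.81 within cohort 2 and 0.81 within cohort 4. The ratio of ND5 to ND4 had r = 0.48 (adjusted permutation p = 0.175), that of ND3 to ND4 -0.38 (adjusted permutation p = 0.453), and the other 3 lay between -0.27 and 0.03. Outside complex I, ATP8 to ND4 had r = 0.74 (adjusted permutation p = 0.00252). These ratio relations were chosen after the data had been seen. None of the 6 ratios was related between partners past the threshold; the value nearest to it was that of ND2 to ND4 (r = -0.48, adjusted permutation p = 0.175).

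**Figure D5:**
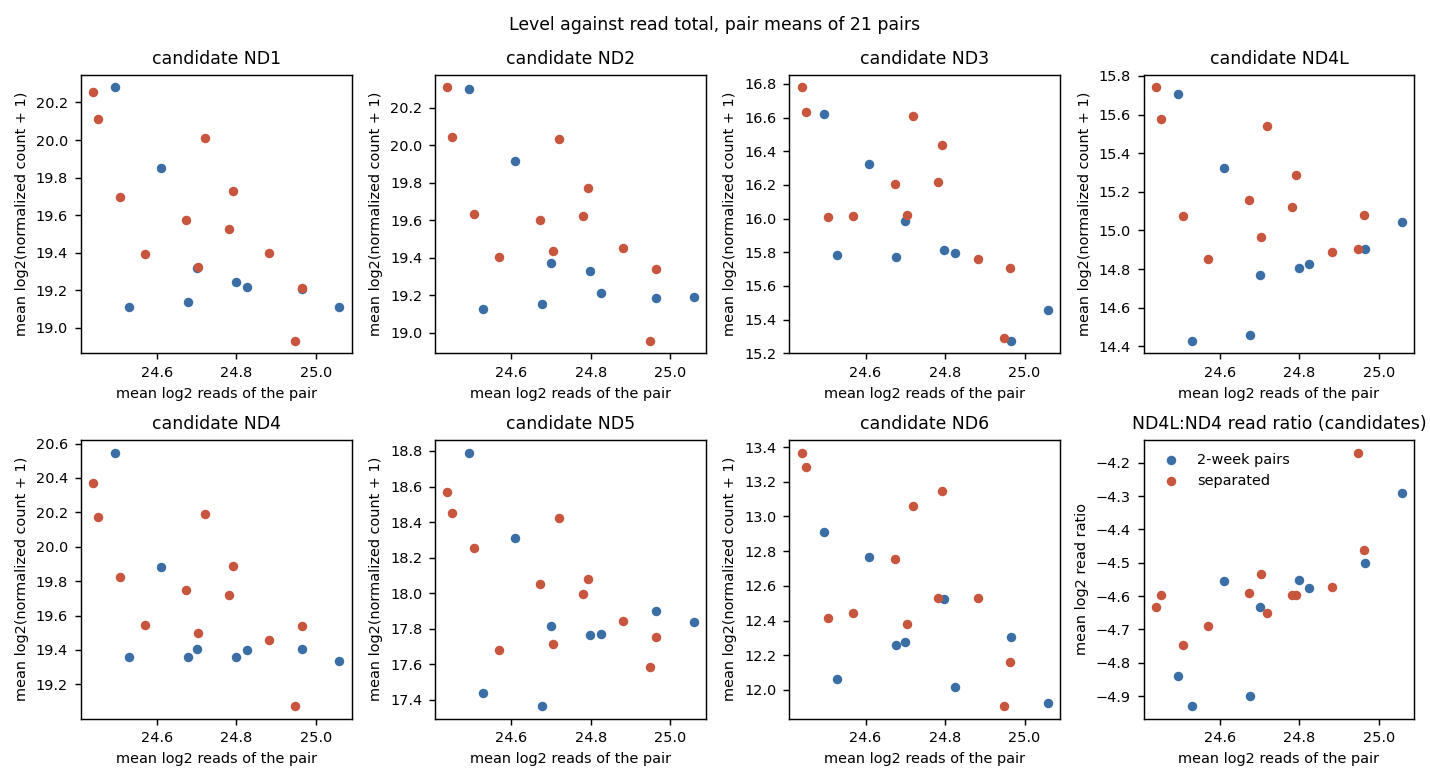
Pair mean of log2(normalized count + 1) for each of the 7 candidate mRNAs, and pair mean of the log2 read ratio of ND4L to ND4, against the pair mean of the log2 read total in 21 pairs. The ND3 panel falls from left to right (r = -0.73), and the ratio panel rises (r = 0.71).

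The mean log2 level of the 7 was set against each ID whose mean was 100 normalized counts or more, over 42 libraries. The 6 other candidate mitochondrial mRNAs had r between 0.86 (ATP8) and 0.98 (CYTB), and the candidate 12S and 16S rRNAs had 0.87 and 0.85. Outside the mitochondrial IDs the most alike were ENSMOCG00000000679 (r = 0.74) and ENSMOCG00000019617 (r = 0.72), and the most opposed were ENSMOCG00000016558 and ENSMOCG00000015960 (r = -0.75 each), while the median ID had r = 0.02. These libraries share partners, cohorts and normalization, so the values are descriptions.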

How the data were processed

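Bulk RNA-seq of 51 prairie vole libraries was analysed from 2 deposited tables. In the first, the deposited signal is a gene's count divided by 1 size factor per library (DESeq2 and DESeq appear in the submitters' processing notes, with no version). All values (100.0%) were whole multiples of a library's step within a tolerance of 0.01, which recovered the reads of 42 libraries. The second holds the authors' TPM. Not given in the sources used here are the aligner, counter, strand setting, treatment of reads with several matches, genome build and annotation. Per the labels' protocols, paired reads of 150 bases came from polyadenylated RNA.

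limma 3.58.1 (R 4.3.3; eBayes with trend and robust) was fitted on log2(normalized count + 1) for the 14151 IDs with a mean of at least 10. For the 6-week comparisons it was fitted on log2(TPM + 0.5) for IDs with a mean of at least 1. Adjusted p-values (Benjamini-Hochberg) run over all IDs tested, with a threshold of 0.05. edgeR 4.0.16 and DESeq2 1.42.0 on the recovered counts were alternatives. The fits were also run on simulated libraries that had no likeness of partners and no cohort differences. That run therefore cannot show how the fits behave with these features of the data. Ratios and correlations used two-sided permutation tests over pairs (SciPy 1.17.1, 100000 resamples where not exact). The named IDs are the 7, plus the 2 most and 2 least alike outside the mitochondrial IDs.

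Partners are named as a cohabiting pair in the labels, so pair numbers pair the libraries. Their consensus correlation over genes was 0.396 (0.596 and 0.576 in the 6-week fits). The labels list the 2-week female of pair 15 in the normalized table, whose column is that of pair 9; the column name was used. The separation time comes from the treatment label and the design text, since the protocol states none. No list of nuclear complex I genes or cell type markers could be used, because IDs were not paired with names. The 7 mRNAs, lists and tests were chosen with earlier results of these data known.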

Additional observations from a re-analysis of the deposited data

Results flagged for a closer look

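Single libraries lay far from the rest of their group in 11 of 40 groups of values tested, by the gap of the highest or lowest library to its nearest neighbour relative to the range (Dixon's 95% limit). Chance gives this in about 5% of groups, and values of the 7 mRNAs in a library are not independent of each other. Only groups of the shorter pairing without separation were tested. Groups of separated voles and of the longer pairing were not, so the left-out separated male could not be flagged here.

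The 2-week paired female of pair 13 was the highest of 9 for all 7 mRNAs, and stood apart in this way for 5 of them, with 1424320 normalized counts of ND1, 1491210 of ND2, 114967 of ND3, 1631630 of ND4 and 479454 of ND5. Its partner was also high, with 1140250 of ND1 and 1440620 of ND4. Its read total of 22324420 was the lowest of the 2-week females.

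Both libraries of 2-week pair 15, which the authors left out of the normalized table, were lowest of 10. The male had 747 TPM of ND3, 6042 TPM of ND4 and 39.9 TPM of ND6, and the female had 45.9 TPM of ND6.

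The log2 read ratio of ND5 to ND4 was lowest in the 2-week female of pair 12, at -2.20, and in the 2-week male of pair 8, at -2.38, each of 9.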

How the results depend on the processing

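The count of called mRNAs stayed at 0 of 7 in the 5 comparisons of normalized counts under other pseudocounts, no low-value filter, edgeR, DESeq2, array weights, TPM, added covariates, and without each pair or cohort. In both 6-week comparisons it stayed at 0 under other pseudocounts, no filter, rescaled TPM, kept libraries alone, and without each 6-week library; edgeR, DESeq2 and the other alternatives were not run there. With the pair as a replicate block it was 0 in all 7 comparisons (smallest adjusted p 0.566 for separated against 2-week pairs), while the IDs called went from 465 to 8, and in females from 54 to 7. Signs of small differences turned as follows (log2). ND5 in males, separated against 2-week: edgeR -0.067, DESeq2 -0.068, edgeR with factors outside the mitochondrial IDs -0.066, TPM -0.017, first principal component as covariate -0.034, without cohort 1 -0.082. Treatment by sex: array weights ND1 0.026, ND3 0.00136, ND4L 0.00835, ND4 0.028, ND6 0.10; read total as covariate ND1 0.00791, ND3 0.024, ND4 0.012; without cohort 4 ND1 0.018, ND3 0.024, ND6 0.065; without cohort 1 ND4 0.00214. Sex, ND3: TPM -0.022, without cohort 1 -0.0051, without cohort 3 -0.00115. Separated against 6-week: kept libraries alone ND1 0.027, ND3 0.00755, ND4 0.012, and with TPM rescaled outside the mitochondrial IDs as well (added after seeing the data) ND1 0.047, ND2 0.018, ND3 0.028, ND4 0.032. Ratios to ND4: ND5 by treatment without cohort 2 0.026; by sex ND1 0.00323 and ND6 0.027 without cohort 4, ND4L -0.058 and ND5 -0.11 without cohort 2. Partner r in TPM was -0.00396 for ND2, -0.043 for ND4 and -0.081 for ND5. Depth r in TPM was 0.073 for ND4L, and 1 of 7 depth relations passed in TPM against 5. The causes were not tested.

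Leaving out 1 pair at a time, ND5 in males ran from -0.15 to 0.10. Treatment by sex ran from -0.23 to 0.076 for ND1, -0.32 to 0.015 for ND2, -0.16 to 0.041 for ND3, -0.28 to 0.019 for ND4L, -0.19 to 0.076 for ND4 and -0.22 to 0.020 for ND6. Sex ran from -0.030 to 0.14 for ND2 and -0.027 to 0.078 for ND3. Rescaling TPM outside the mitochondrial IDs moved the median of all IDs to 0.12 in 6-week against 2-week pairs, where the 7 had a median of 0.48. In TPM the median of all IDs was -0.11 for separated against 2-week females, where the 7 had a median of 0.18. Each of the 7 had at least 2643 reads in the 42 libraries, and the depth of the other 9 libraries is unknown.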
